A study of Mus musculus with 26 samples.

Results

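The effect of the PRMT5 inhibitor MRTX1719 on wild-type MC38/gp100 cells was read from 2 libraries of cells treated with it and 3 libraries of cells given DMSO, the solvent control. These 5 libraries, out of 26 in the series, were taken by their labels, and all genes of the count table were used. MC38/gp100 is a mouse colon adenocarcinoma cell line that carries the melanoma antigen gp100. Wild-type here means that Mtap was left intact. The MRTX1719 libraries are replicates 1 and 3, and a replicate 2 was not analysed here. For comparison there were 3 libraries each of Mtap KO cells with MRTX1719, Mtap KO cells with GSK3326595, wild-type cells with GSK3326595 and Mtap KO cells with DMSO, which makes 17 MC38 libraries with the first 5. Both inhibitors were given at 0.5 uM for 5 days, and all MC38 cells, knockout and control alike, carry gp100 and were grown in serum-containing medium. The labels do not say whether the knockout is 1 clone. In 1 label field the last digit of GSK3326595 changes for replicates 2 and 3, and a single compound was assumed.

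PRMT5 places symmetric dimethyl marks on arginines of histones, of Sm proteins of the splicing machinery and of many other proteins, using S-adenosylmethionine (SAM) as methyl donor. MTAP breaks down methylthioadenosine (MTA), a by-product of polyamine synthesis, and cells without MTAP build up MTA, which occupies the SAM site of PRMT5. MRTX1719 binds the PRMT5 and MTA complex and is made to act on cells that have lost MTAP, whereas GSK3326595 acts together with SAM in cells of either kind. The question of the comparison is therefore how much of a response to MRTX1719 remains where Mtap is intact.

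Total counts were 26082660 and 26054375 in the MRTX1719 libraries and 22755637 to 26160274 in the DMSO libraries, and 14835 genes were expressed highly enough to be tested. The labels number the libraries but do not say whether they are separate cultures. The p-values below therefore take in only the spread among libraries, possibly a technical one. That spread was estimated over the 6 groups of the 17 MC38 libraries. Mtap RNA was 400 and 399 CPM (counts scaled to library size) in wild-type cells with MRTX1719 and 388, 393 and 397 CPM with DMSO, against 203 to 206 CPM in KO cells with MRTX1719 and 264 to 276 CPM in KO cells with DMSO. The KO line thus had less Mtap RNA but was far from 0, so whole-gene counts check its label only in part. The epithelial markers Epcam and Cdx2 were at 0 CPM in all 5 libraries and Krt18, Cdh1 and Vil1 were under 0.5 CPM, while Krt8 was at 23.6 to 24.4 CPM with MRTX1719 and 21.7 to 24.4 CPM with DMSO. The colon epithelial label is therefore not borne out by these markers. Of the fibroblast markers, Dcn was at 446 to 464 CPM and Col3a1 at 1260 to 1290 CPM with MRTX1719, while Thy1 was at 0.416 to 0.529 CPM and Acta2 at 0 to 0.0755 CPM. The 13 leukocyte markers included Cd68 at 17.6 to 17.8 CPM with MRTX1719 and 18.2 to 18.9 CPM with DMSO and Lyz2 at 0.831 to 1.14 CPM with MRTX1719 and 0.833 to 1.26 CPM with DMSO. The other leukocyte markers were under 1 CPM with MRTX1719, with Tyrobp, Itgam and Cd4 at 0 CPM.

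Many genes of wild-type cells differed by small amounts between MRTX1719 and DMSO. The common biological coefficient of variation among libraries of a group was 0.0198 over the MC38 libraries. Should each group come from a single culture, a difference between cultures could not be told apart from one due to the compound. Of the 14835 genes tested, 1117 were called at an adjusted p under 0.05 (7.53%), 537 of them higher (3.62%) and 580 lower (3.91%) with MRTX1719. The median size of a called change was 0.14 on the log2 scale, and 34 of the 1117 moved by at least 1.5-fold. Of these, 18 moved at least 2-fold, and 15 of these had a mean under 1 CPM in the higher group. Every gene-level adjusted p here is from edgeR's quasi-likelihood test, adjusted by Benjamini-Hochberg over the 14835 genes. Fold changes are log2 values of MRTX1719 over DMSO with their standard error (SE), and levels are means ± SD. The count was 433 without MRTX1719 replicate 1 and 510 without replicate 3, where the lone library left is assumed to vary like the other groups.

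Of the 34 gene lists drawn up, that of mitochondrially encoded genes had no tested member. Interferon-stimulated genes had the most higher calls of the other lists. Of 46 tested members, 21 rose, none fell and 25 were not called, where 3.62% of all genes rose and 3.91% fell. The median log2 fold change was 0.12, against 0.00 over all genes tested. Both MRTX1719 libraries lay above all 3 DMSO libraries at 32 members and below them at 2, where 36.4% of all genes did not overlap, 18% above and 18.4% below. Rsad2, the antiviral enzyme viperin, stood at 171 and 167 CPM with MRTX1719 and at 134, 130 and 141 CPM with DMSO. The groups did not overlap, and the log2 fold change was 0.33 ± 0.0309 (adjusted p = 2.56e-16, edgeR). Cxcl10, a chemokine that draws T cells, was at 429 and 450 CPM with MRTX1719 and at 371, 375 and 364 CPM with DMSO (0.25 ± 0.0246, adjusted p = 3.65e-15, edgeR). Ifi44, an interferon-induced antiviral gene, was at 179 and 178 CPM with MRTX1719 and at 149, 149 and 147 CPM with DMSO (0.27 ± 0.0306, adjusted p = 4.03e-12, edgeR), again with no overlap. Oas2, which makes the 2-5A messenger that activates RNase L, rose by 0.23, and Oasl2, a related gene, by 0.11. Irf7, a transcription factor that amplifies interferon responses, did not pass the test, at 119 ± 0.36 CPM with MRTX1719 and 117 ± 0.937 CPM with DMSO, nor did the virion tether Bst2, at 341 ± 5.81 and 357 ± 2.12 CPM. The number of higher members was 15 without MRTX1719 replicate 1 and 13 without replicate 3, and Oasl2 was not called without replicate 3 (adjusted p = 0.13, edgeR).

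The sequences before the start site of 2 raised interferon genes and 2 lowered class I genes are shown because both kinds of gene are known to use the interferon-stimulated response element (ISRE). They are the 250 bases before the start, written 5′ to 3′ on the gene's strand, from RefSeq on build GRCm38.p6, which is not the build of the counts. Capitals mark matches to GAAANNGAAA on either strand. Rsad2 lies on the minus strand at chr12:26456453-26456702, Cxcl10 on the minus strand at chr5:92348890-92349139, B2m on the plus strand at chr2:122147437-122147686 and H2-T22 on the minus strand at chr17:36042743-36042992.
Rsad2: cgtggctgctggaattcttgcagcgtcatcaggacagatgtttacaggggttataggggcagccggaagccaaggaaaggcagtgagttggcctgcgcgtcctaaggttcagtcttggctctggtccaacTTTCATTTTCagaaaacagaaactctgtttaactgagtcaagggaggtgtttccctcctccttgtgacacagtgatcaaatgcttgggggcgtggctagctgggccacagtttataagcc
Cxcl10: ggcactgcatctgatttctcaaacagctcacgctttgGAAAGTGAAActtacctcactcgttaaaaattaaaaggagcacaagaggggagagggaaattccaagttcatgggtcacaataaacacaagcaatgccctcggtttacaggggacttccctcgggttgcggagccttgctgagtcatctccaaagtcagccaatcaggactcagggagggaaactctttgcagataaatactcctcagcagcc
B2m: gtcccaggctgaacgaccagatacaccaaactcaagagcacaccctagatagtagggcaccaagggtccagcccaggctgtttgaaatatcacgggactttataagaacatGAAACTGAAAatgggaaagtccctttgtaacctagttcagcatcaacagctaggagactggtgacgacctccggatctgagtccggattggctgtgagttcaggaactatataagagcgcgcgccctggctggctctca
H2-T22: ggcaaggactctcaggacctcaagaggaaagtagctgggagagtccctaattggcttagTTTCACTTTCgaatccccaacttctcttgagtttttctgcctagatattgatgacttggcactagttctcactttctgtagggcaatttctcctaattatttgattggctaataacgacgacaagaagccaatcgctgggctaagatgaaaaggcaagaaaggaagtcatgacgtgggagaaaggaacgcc
A match of this kind was present before the start of 9 of 16 raised interferon-stimulated genes with a RefSeq promoter (56.2%), of 2 of 7 lowered class I genes (28.6%) and of 337 of 10279 tested genes (3.28%). Over all 32851 promoters of the same length the share was 2.98%. Called or not, 17 of 34 tested interferon-stimulated genes with a RefSeq promoter had a match, and 3 of 20 class I genes did. The high share among raised interferon-stimulated genes was thus close to that of their whole list. Whether called members of a list differ from its other members in the share with a match was not tested. Each sequence shown holds a match, while most lowered class I genes had none. A match describes these letters only.

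**Figure D1:**
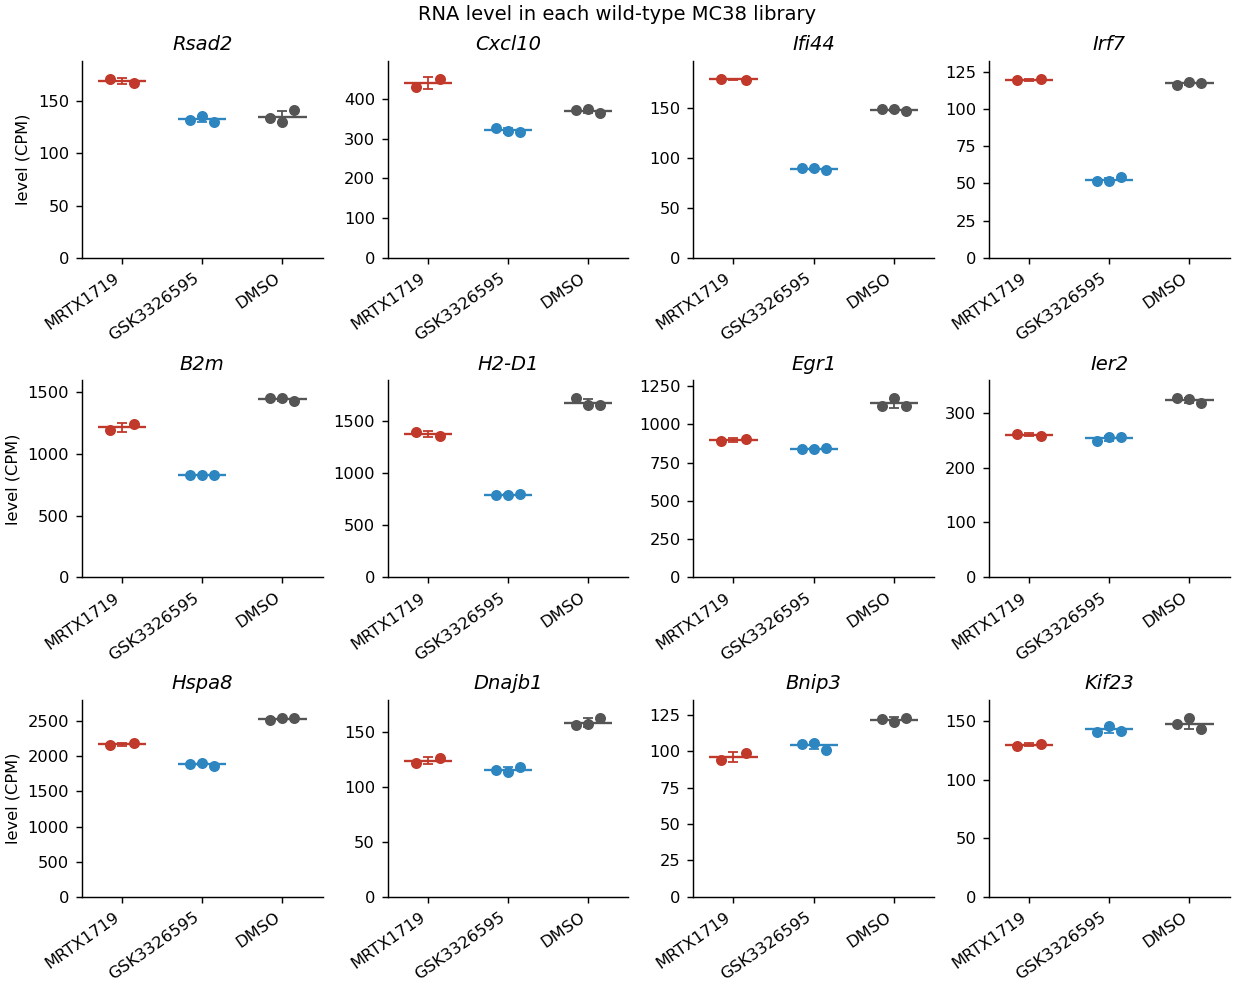
RNA level (CPM, linear axis from 0) of 12 genes in each wild-type MC38 library with MRTX1719 (2 libraries), GSK3326595 (3) or DMSO (3). Points are libraries, lines are means and bars are SD; Rsad2, Cxcl10 and Ifi44 lie above DMSO with MRTX1719, while B2m, H2-D1, Egr1, Ier2, Hspa8, Dnajb1, Bnip3 and Kif23 lie below it.

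Of 19 cytosolic nucleic acid sensing genes tested, 4 rose, none fell and 15 were not called, with a median log2 fold change of 0.05, where 3.62% of all genes rose. Ifi204, a DNA-binding member of the p200 family, was at 58.0 and 61.4 CPM with MRTX1719 and at 48.1, 51.4 and 46.6 CPM with DMSO (0.29 ± 0.0504, adjusted p = 2.47e-05, edgeR). Its relative Ifi203 rose by 0.21, the endosomal receptor of double-stranded RNA Tlr3 by 0.19 and the RNA helicase Rigi (RIG-I) by 0.13. Tlr3 was not called without MRTX1719 replicate 1 (adjusted p = 0.091, edgeR).

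MHC class I presentation genes, which put peptides on the cell surface for T cells, had calls in the other direction. Of 23 tested, 7 fell, none rose and 16 were not called, where 3.91% of all genes fell and 3.62% rose. The median log2 fold change was -0.05. B2m, the light chain shared by class I molecules, was at 1190 and 1240 CPM with MRTX1719 and at 1450, 1450 and 1430 CPM with DMSO (-0.25 ± 0.0209, adjusted p = 1.22e-19, edgeR). The class I heavy chain H2-D1 was at 1400 and 1360 CPM with MRTX1719 and at 1720, 1660 and 1660 CPM with DMSO (adjusted p = 1.01e-21, edgeR), and the heavy chain H2-K1 fell by 0.21. The groups did not overlap for either of the first pair. The nonclassical heavy chain H2-T22 fell by 0.27 and H2-Q4 by 0.19. Heavy chain genes are near copies of each other, and reads may have been shared or split between them, and no source used here gives the counting program or its strand setting. Over the whole list the summed level was 8110 to 8200 CPM with MRTX1719 and 8930 to 9100 CPM with DMSO, whereas that of the interferon list was 5150 to 5240 CPM with MRTX1719 and 4760 to 4830 CPM with DMSO.

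Immediate early genes are switched on within minutes of growth factor or stress signals. Of 25 tested, 16 fell and none rose (median -0.15), where 3.91% of all genes fell and 3.62% rose. Egr1, a zinc finger transcription factor, had the smallest p of all genes and was at 889 and 907 CPM with MRTX1719 and at 1120, 1170 and 1120 CPM with DMSO (-0.34 ± 0.0216, adjusted p = 1.43e-28, edgeR). Both MRTX1719 libraries were below every DMSO library. Fosb, a partner of Jun in AP-1, and Btg2, an antiproliferative gene, both fell by 0.34, and Ier2 by 0.31. Rhob, a small GTPase, was at 664 and 659 CPM with MRTX1719 and at 787, 795 and 787 CPM with DMSO (-0.26 ± 0.0224, adjusted p = 4.57e-18, edgeR). Without MRTX1719 replicate 1, 8 immediate early members were lower, and without replicate 3, 12 were.

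Of 18 cytosolic heat shock genes, 8 fell and none rose (median -0.11), where 3.91% of all genes fell and 3.62% rose. Hspa8, the constitutive HSP70 chaperone, was at 2160 and 2190 CPM with MRTX1719 and at 2520, 2550 and 2540 CPM with DMSO (-0.22 ± 0.0189, adjusted p = 1.31e-18, edgeR). Its J-domain partners Dnajb1 and Dnaja1 fell by 0.35 and 0.19. The small heat shock protein Cryab stood at 44.1 and 42.1 CPM with MRTX1719 and at 62.5, 63.5 and 57.8 CPM with DMSO (-0.51 ± 0.0464, adjusted p = 3.55e-17, edgeR), a fall of 29.7%. Immediate early and heat shock RNAs respond to temperature and handling, and the part of handling in these or the other results was not tested.

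Glycolysis and hypoxia-response genes were lower at 13 of 30 members and higher at 1 (median -0.08), against 3.91% and 3.62% of all genes. Bnip3, a hypoxia-induced mitophagy receptor, was at 93.9 and 98.6 CPM with MRTX1719 and at 122, 120 and 123 CPM with DMSO (-0.34 ± 0.0325, adjusted p = 7.6e-16, edgeR). The glucose transporter Slc2a1 fell by 0.20, the glycolytic enzyme Gpi1 by 0.13 and the angiogenic factor Vegfa by 0.12. The lower members numbered 8 without MRTX1719 replicate 1 and 6 without replicate 3.

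Mitosis genes fell at 14 of 32 members and rose at none (median -0.09), where 3.91% of all genes fell and 3.62% rose. Kif23, a kinesin of cytokinesis, was at 129 and 131 CPM with MRTX1719 and at 148, 153 and 143 CPM with DMSO (-0.18 ± 0.0315, adjusted p = 5.17e-06, edgeR). The spindle protein Nusap1 fell by 0.21, the checkpoint protein Mad2l1 by 0.17 and topoisomerase Top2a by 0.11. Both MRTX1719 libraries lay below all DMSO libraries at 23 of the 32 members, where 18.4% of all genes did so. The number called lower was 5 without MRTX1719 replicate 1 and 9 without replicate 3. Of 42 DNA replication genes 4 fell (9.52%, against 3.91% of all genes). They were Rrm1, a ribonucleotide reductase subunit (by 0.14), and the sliding clamp Pcna (by 0.11). The others were the transcription factor E2f2 (by 0.21) and the primase subunit Prim1 (by 0.12). Of 34 homologous recombination and Fanconi genes only Brca1 fell (by 0.13), and its 2.94% is under the share of all genes. E2f2 and Brca1 were not called without either MRTX1719 library, nor Prim1 without replicate 3.

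**Figure D2:**
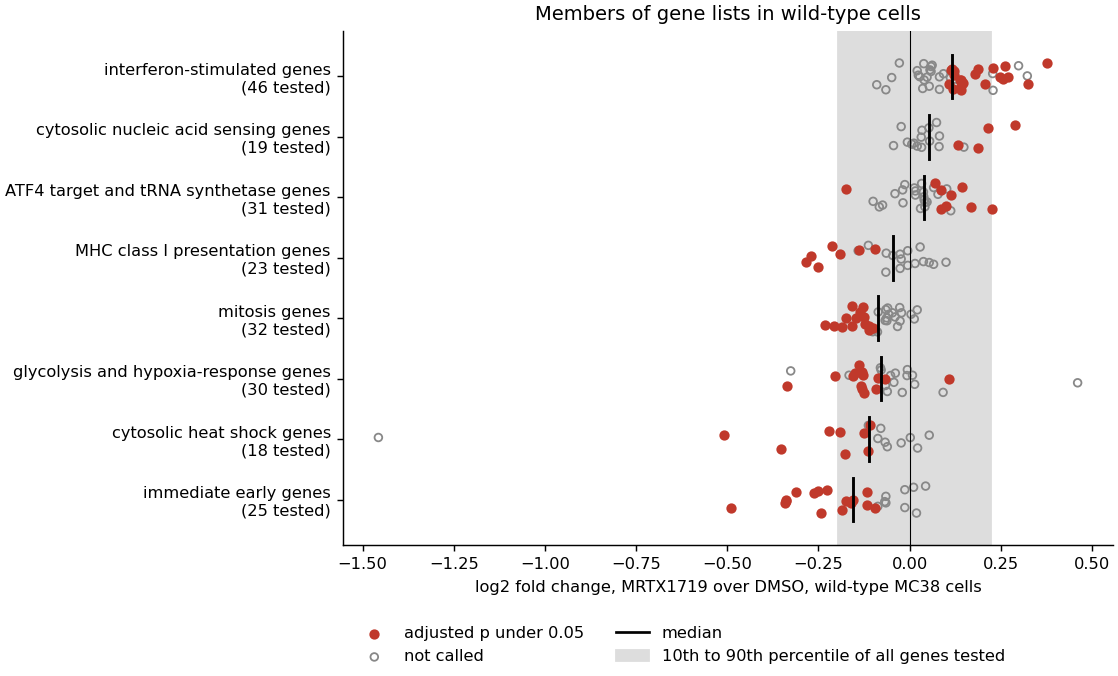
Log2 fold change (MRTX1719 over DMSO, wild-type cells) of the tested members of 8 gene lists. Filled points are called at an adjusted p under 0.05, open points are not, lines are medians and the grey band spans the 10th to 90th percentile of all genes tested (-0.19 to 0.22); called interferon and sensing genes lie to the right of 0, and called class I, mitosis, heat shock and immediate early genes to the left.

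Prmt5, the target of both compounds, was at 154 and 155 CPM with MRTX1719 and at 143, 149 and 144 CPM with DMSO, which did not pass the test (0.09 ± 0.0303, adjusted p = 0.0517, edgeR). Its cofactor Wdr77 was at 28.3 ± 0.707 CPM with MRTX1719 and 27.1 ± 0.367 CPM with DMSO. Of 18 PRMT5 complex and Sm assembly genes, only the Sm protein Snrpg was called (5.56%, against 7.53% of all genes), lower by 0.12, and it was not called without either MRTX1719 library. Of 9 genes listed as other arginine methyltransferases, 1 rose and 1 fell (22.2% called). Prmt7 rose by 0.22. Jmjd6, included in the list though a hydroxylase also described as an arginine demethylase, fell by 0.17. Of 33 SR protein, hnRNP and CLK genes, 6 rose and 3 fell (27.3% called), with the splicing factor Srsf1 higher by 0.16.

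Of 29 p53 targets, 2 rose and 4 fell (20.7% called, against 7.53% of all genes). Cdkn1a, the cell cycle inhibitor p21, was at 45.2 and 44.4 CPM with MRTX1719 and at 54.1, 52.3 and 51.0 CPM with DMSO (-0.23 ± 0.0471, adjusted p = 0.000281, edgeR). Mdm4, a p53 inhibitor whose splicing depends on PRMT5, was not called, at 111 and 113 CPM with MRTX1719 and 107, 105 and 107 CPM with DMSO. Trp53 fell by 0.09 and the ribosomal protein Rpl11, an MDM2 ligand, by 0.13, and Trp53 was not called without either MRTX1719 library.

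Among stress and metabolic genes, ATF4 targets and tRNA synthetases rose at 8 of 31 members and fell at 1 (29.0% called, against 7.53% of all genes). Asparagine synthetase Asns was higher by 0.14, the tRNA synthetase Iars by 0.11 and the transcription factor Cebpg by 0.17. Atf3 was lower by 0.17. Enoph1, an enzyme of the methionine salvage path that starts from MTA, was at 32.4 and 34.1 CPM with MRTX1719 and at 27.7, 25.6 and 26.8 CPM with DMSO (0.32 ± 0.0558, adjusted p = 1.01e-05, edgeR). Of 18 methionine salvage and methyl cycle genes it and spermine synthase Sms (0.19 ± 0.035) were the ones called (11.1%). Among 15 polyamine genes, Odc1, the first enzyme of the path, rose by 0.06 along with Sms, and Sat1, which acetylates polyamines for export, fell by 0.18. Odc1 was not called without either MRTX1719 library, Cebpg and Atf3 not without replicate 1.

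Genes for secreted and surface proteins changed in both directions. Of 24 chemokine and cytokine genes, 4 rose and 3 fell (29.2% called, against 7.53% of all genes). The monocyte chemokines Ccl2 and Ccl7 rose by 0.12 and 0.26, and Cxcl16, the ligand of CXCR6, fell by 0.18. Il6 was at 1.47 and 1.51 CPM with MRTX1719 and at 0.633, 0.909 and 0.912 CPM with DMSO (0.86 ± 0.29, adjusted p = 0.0478, edgeR) and was not called without either MRTX1719 library. Of 10 checkpoint ligand genes 30.0% were called. Cd47, a signal against phagocytosis, and Lgals9, a lectin ligand of TIM-3, rose by 0.12 and 0.10. Pvr, a ligand of TIGIT and CD226, fell by 0.11. Ccl7, Lgals9 and Pvr were not called without either MRTX1719 library, and Cxcl16 and Cd47 not without replicate 3. Of 41 collagen, matrix and protease genes, 5 rose and 12 fell (41.5% called), with Col3a1 lower by 0.17 and Col1a2 by 0.14. Pmel, the mouse gene for gp100, was at 1.25 and 1.36 CPM with MRTX1719 and at 1.44 to 1.87 CPM with DMSO and was not called. The part of the introduced gp100 RNA in these counts was not tested.

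Counts for the remaining lists stand beside a background of 3.62% of all genes higher and 3.91% lower. This background, here and for the lists above, is not matched to the lists by expression level. The SE was smaller at high levels, at 0.0204 for Col3a1 (1270 CPM with MRTX1719) and 0.548 for Krt19 (0.454 CPM). Small changes were therefore easier to call in highly expressed genes. Of 30 ribosome biogenesis genes 5 rose and 1 fell, cholesterol and fatty acid synthesis genes fell at 3 of 29, unfolded protein response genes rose at 1 of 21 and nuclear oxidative phosphorylation genes rose at 2 of 34. BCL2 family genes rose at 2 and fell at 1 of 17, NRF2 targets rose at 1 and fell at 2 of 16, AHR and xenobiotic genes fell at 1 of 6, and keratin, cadherin and EMT factor genes rose at 2 of 17. Variant histone genes rose at 1 and fell at 1 of 10, nuclear lncRNA and snoRNA host genes rose at 2 and fell at 1 of 19, and MDM4, MDM2 and p53 regulator genes fell at 2 of 7. Of marker lists, none of 6 tested leukocyte genes was called, 1 of 9 fibroblast and endothelial genes rose and 1 fell, and 1 of 4 tumour line genes rose.

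Few genes with sizeable expression changed strongly. Hmga1b had 6.46 and 6.73 CPM with MRTX1719 and 3.21, 2.5 and 2.95 CPM with DMSO (1.20 ± 0.284, adjusted p = 0.0225, edgeR), but it is a near copy of the chromatin protein gene Hmga1, and reads of the pair may have been split. Hgf, the ligand of the MET receptor, was at 1.43 and 2.19 CPM with MRTX1719 and at 1.06, 0.947 and 0.739 CPM with DMSO (0.98 ± 0.269, adjusted p = 0.00936, edgeR), and Klhl30, a Kelch family gene, rose by 0.96. The imprinted RNA H19 was at 2.34 and 0.946 CPM with MRTX1719 and at 3.55, 3.33 and 2.78 CPM with DMSO, where the groups did not overlap but the treated pair lay far apart. The zinc finger gene Zc3h6 was at 3.74 and 4.54 CPM with MRTX1719 and at 6.8, 7.08 and 7.43 CPM with DMSO (-0.78 ± 0.134, adjusted p = 6.55e-06, edgeR). Hmga1b was not called without either MRTX1719 library, Hgf and H19 not without replicate 3, and Klhl30 not without replicate 1.

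The effect was then set beside that of the same compound in Mtap KO cells, which share no library with it. MRTX1719 called 10464 genes in KO cells (70.5%). The difference of the effects, wild-type minus KO, was called at 8627 genes (58.2%), with 4133 higher (27.9%) and 4494 lower (30.3%) in wild-type cells. Of the 1117 genes called in wild-type cells, 874 (78.2%) passed this difference test, and at 805 the change was smaller in wild-type cells. Of the same 1117, 973 (87.1%) were also called in KO cells, which is 9.3% of the KO calls, with 297 higher in both, 255 lower in both, 167 higher in wild-type but lower in KO and 254 lower in wild-type but higher in KO. Across 14835 genes, Pearson's r of the log2 fold changes was 0.051, given as a description.

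Gene groups whose calls lay mostly in opposite directions in the 2 lines included 3 of the lists. In KO cells, 7 of 46 interferon-stimulated genes rose and 33 fell, where 37% of all genes rose and 33.6% fell. The difference was called higher in wild-type cells at 33 members and lower at 1 (27.9% and 30.3% of all genes). Mitosis genes rose at 26 of 32 members in KO cells and fell at 3, and the difference was lower in wild-type cells at 27 and higher at none. Kif23, Mad2l1 and Top2a fell in both lines, in KO cells by 0.083, 0.117 and 0.061. The difference was not called at Mad2l1 and Top2a. Heat shock genes rose at 16 of 18 members in KO cells and fell at 2, with the difference lower in wild-type cells at 17 and higher at 1. Hspa8 fell in both lines, in KO cells by 0.065. Dnajb1 fell by 0.35 in wild-type cells and rose by 0.31 in KO cells, a difference of -0.67 ± 0.0436 (adjusted p = 9.47e-30, edgeR). Cdkn1a fell in wild-type cells and rose by 1.59 in KO cells (difference -1.81 ± 0.0795, adjusted p = 3.22e-46, edgeR). Ptx3, a secreted pattern recognition protein, was at 214 and 201 CPM with MRTX1719 and at 176, 166 and 173 CPM with DMSO in wild-type cells, while in KO cells it fell by 0.84. Txnip, an inhibitor of thioredoxin, rose by 0.24 in wild-type cells and fell by 0.56 in KO cells. Iqgap3, a scaffold of dividing cells, fell by 0.25 and rose by 0.24 in the same order, and Phf20l1, a reader of methyl-lysine, rose by 0.26 and fell by 0.37.

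Other genes were called in the same direction in both lines. Rsad2 rose by 0.33 in wild-type cells and by 0.28 in KO cells, and the difference was not called (0.04 ± 0.0433, adjusted p = 0.404, edgeR). B2m fell by 0.25 in wild-type cells and by 1.04 in KO cells, and Fosb by 0.34 and by 2.54. Islr, a secreted protein of mesenchymal cells, fell by 0.22 in wild-type cells and by 3.62 in KO cells, and the basement membrane proteoglycan Hspg2 by 0.15 and by 1.53. Col6a1, a chain of collagen VI, fell by 0.07 in wild-type cells, where it was not called without either MRTX1719 library, and by 1.66 in KO cells. Il1rl1, the IL-33 receptor, rose by 0.14 in wild-type cells, where it was not called without MRTX1719 replicate 1, and by 1.89 in KO cells. A further pair was called in KO cells only, with the difference itself called. Serpinb9b, a granzyme-inhibiting type of serpin, was not called in wild-type cells, at 44.5 ± 2.71 CPM with MRTX1719 and 40.7 ± 0.472 CPM with DMSO, and rose by 2.73 in KO cells. Mdm4, not called in wild-type cells, fell by 1.11 in KO cells (difference 1.19 ± 0.0491, adjusted p = 5.24e-49, edgeR).

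**Figure D3:**
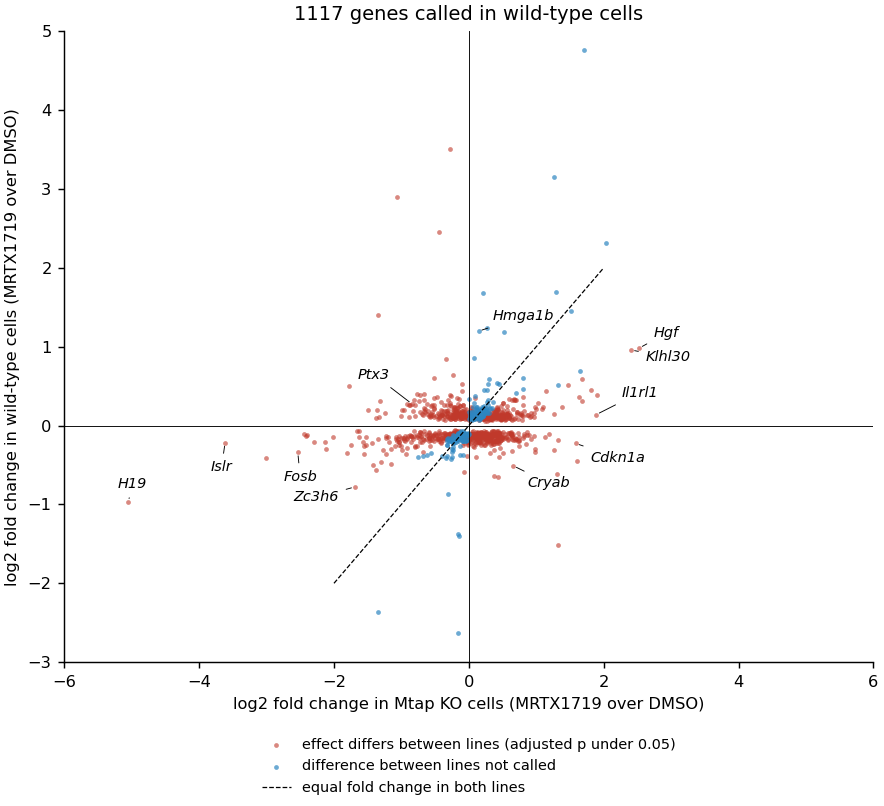
Log2 fold change with MRTX1719 in wild-type cells (vertical axis) and in Mtap KO cells (horizontal axis) for the 1117 genes called in wild-type cells. Red genes are the 874 whose effect differed between the lines at an adjusted p under 0.05, blue genes are the others, and the dashed line marks equal fold changes; 34 of the genes moved by at least 1.5-fold in wild-type cells, and the others form a flat band along the horizontal axis.

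How much of the KO response remained in wild-type cells was described with gene sets chosen in KO libraries alone. The 200 genes most clearly lowered by MRTX1719 in KO cells had a median log2 fold change of -1.03 there and of -0.047 in wild-type cells. In wild-type cells 57 of the 200 fell and 8 rose, against 3.91% and 3.62% of all genes, and 143 had the sign seen in KO cells. The mean log2 level of the set, relative to the wild-type DMSO mean, was -0.054 and -0.052 in the MRTX1719 libraries, -0.137, -0.141 and -0.131 in the wild-type GSK3326595 libraries and 0.000, 0.004 and -0.004 in the DMSO libraries. The 200 genes raised by MRTX1719 in KO cells had a median of 0.74 there and of 0.02 in wild-type cells, where 34 rose, 17 fell and 119 had the sign seen in KO cells.

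GSK3326595 called 52.8% of all genes in KO cells, and sets from that response were read in the same way. The 200 lowered genes stood at -0.043 and -0.04 in wild-type MRTX1719 libraries, at -0.234, -0.235 and -0.233 with GSK3326595 and at 0.000, 0.003 and -0.003 with DMSO, on the same scale. The 200 raised genes stood at 0.03 and 0.036 with MRTX1719, at 0.171, 0.166 and 0.169 with GSK3326595 and at -0.008, 0.008 and 0.000 with DMSO. With MRTX1719 in wild-type cells, 56 of these 200 lowered genes fell and 18 rose, and of the 200 raised genes 37 rose and 18 fell. Over all genes 3.91% fell and 3.62% rose. In each of the 4 sets the MRTX1719 libraries lay on the same side of DMSO as the KO response and nearer to DMSO than the GSK3326595 libraries did. The 4 sets were chosen against the same KO DMSO libraries and may share genes, so they are not independent readings.

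**Figure D4:**
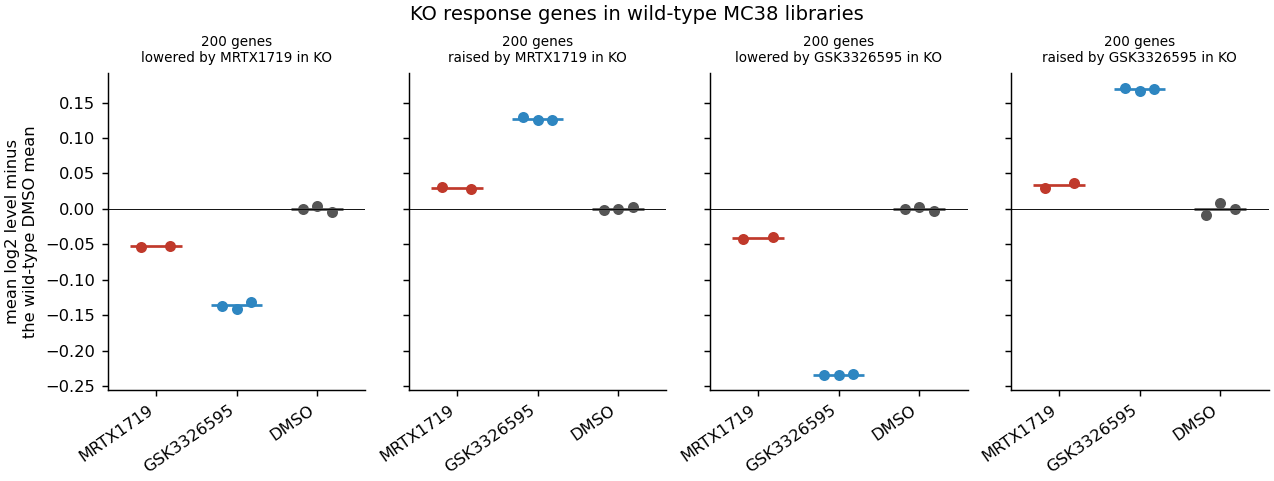
Mean log2 level of 200-gene sets, relative to the wild-type DMSO mean, in each wild-type library with MRTX1719, GSK3326595 or DMSO; points are libraries and lines are group means. The MRTX1719 points lie between those of DMSO and GSK3326595 in all 4 panels, for example at -0.054 and -0.052 against -0.137 to -0.131 with GSK3326595 for genes lowered by MRTX1719 in KO cells.

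Within wild-type cells MRTX1719 was finally compared with GSK3326595 at the same dose and time. The 2 compounds differed at 4454 genes (30%), of which 2283 were higher (15.4%) and 2171 lower (14.6%) with MRTX1719. The comparisons of the 2 compounds with DMSO share the DMSO libraries, so their values are only set side by side. GSK3326595 called 6102 genes against DMSO (41.1%).

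Interferon-stimulated genes were higher with MRTX1719 than with GSK3326595 at 43 of 46 members and lower at none (15.4% and 14.6% of all genes). With GSK3326595 1 member rose against DMSO and 41 fell (20.1% and 21.1% of all genes), where MRTX1719 had 21 and 0. Irf7 was at 119 and 120 CPM with MRTX1719, at 51.4, 51.4 and 54.1 CPM with GSK3326595 and at 116, 118 and 117 CPM with DMSO, a log2 difference between the compounds of 1.19 ± 0.036 (adjusted p = 2.87e-63, edgeR). Ifi44 differed by 1.0 ± 0.0318, Ifi204 by 0.88 ± 0.0528, Oasl2 by 0.82 ± 0.0291, Bst2 by 0.73 ± 0.0259 and Cxcl10 by 0.45 ± 0.0246. Rsad2, at 132, 136 and 130 CPM with GSK3326595, differed by 0.35 ± 0.0307 (adjusted p = 1.48e-19, edgeR). Class I genes were higher with MRTX1719 than with GSK3326595 at 16 of 23 members and lower at 2. B2m was at 827 to 829 CPM with GSK3326595, below every MRTX1719 and DMSO library, and differed by 0.55 ± 0.0208, as did H2-D1 by 0.79 ± 0.0213 and H2-K1 by 0.67 ± 0.0351.

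**Figure D5:**
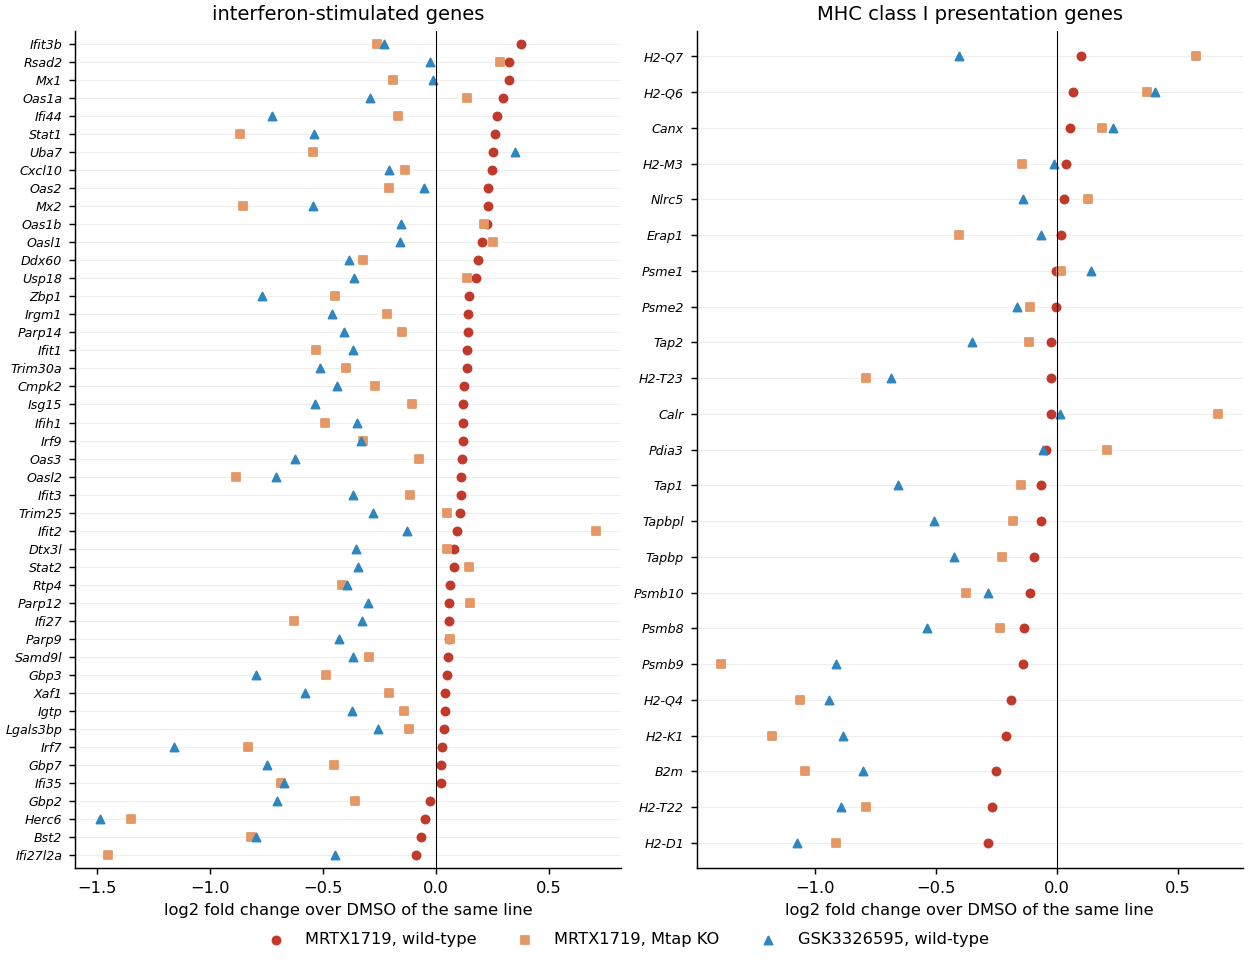
Log2 fold change over DMSO of the same line for 46 interferon-stimulated genes (left) and 23 MHC class I presentation genes (right) with MRTX1719 in wild-type cells (circles), MRTX1719 in Mtap KO cells (squares) and GSK3326595 in wild-type cells (triangles). Most interferon circles lie right of 0 while most triangles lie left of it; the lowest class I circle is H2-D1 and its triangle and square lie further left.

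Mitosis genes were lower with MRTX1719 than with GSK3326595 at 21 of 32 members and higher at 1. Between the compounds 14.6% of all genes were lower and 15.4% higher with MRTX1719. Kif23 was lower by 0.14 ± 0.0314 and Nusap1 by 0.21 ± 0.0422. Top2a was not called between the compounds, its difference being 0.05 with a 95% interval of 0.01 to 0.09 before adjustment (adjusted p = 0.0773, edgeR). Of 25 immediate early genes, 7 were higher and 10 lower with MRTX1719 than with GSK3326595, against the same shares of all genes. GSK3326595 against DMSO had 7 higher and 14 lower, where 20.1% of all genes were higher and 21.1% lower. Ier2 was at 262 and 258 CPM with MRTX1719, at 248, 256 and 256 CPM with GSK3326595 and at 326, 324 and 317 CPM with DMSO, and the compounds' difference was 0.04 with a 95% interval of -0.02 to 0.09 (adjusted p = 0.329, edgeR). For Fosb the difference was 0.05, with an interval of -0.01 to 0.11. Egr1 was called, higher with MRTX1719 by 0.10 ± 0.0215, as were Hspa8 by 0.21 ± 0.0188 and Cryab by 0.41 ± 0.0503.

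Among the genes of smallest p that were lower with MRTX1719 than with GSK3326595 were a cytokine receptor and secreted factors. Il1rl1 was at 94.9 and 93.5 CPM with MRTX1719, at 183, 182 and 178 CPM with GSK3326595 and at 86.5, 84.7 and 85.7 CPM with DMSO, a difference of -0.94 ± 0.0303 (adjusted p = 2.97e-60, edgeR). Osteopontin (Spp1) differed by -0.70 ± 0.022, the angiopoietin-like gene Angptl7 by -0.89 ± 0.0297 and Ccl2 by -0.51 ± 0.0234. Ptx3 and Txnip, raised by MRTX1719, were higher with GSK3326595 than with MRTX1719, with log2 differences of -0.27 and -0.31 (MRTX1719 minus GSK3326595). Mdm4 was at 97.2, 93.9 and 95.2 CPM with GSK3326595, a difference of 0.23 ± 0.0344 (adjusted p = 1.18e-08, edgeR).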

How the data were processed

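RNA was measured by poly(A) RNA-seq in 17 MC38 libraries. The deposited files hold unnormalised gene counts. The deposited normalised signal divides each count by 1 size factor per library and served to name genes. Build GRCm39 and the tools DESeq 1.18.0, Bowtie2 2.1.0 and TopHat2 2.0.10 are listed by the submitters' processing notes, and no source used here gives the counting program or strand setting. Library totals were 19302768 to 27786226 counts. Mitochondrially encoded genes and T cell libraries were not analysed here.

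Counts were tested with edgeR 4.0.16 in R 4.3.3: TMM scaling, filterByExpr with a minimum count of 10, a robust quasi-likelihood fit of 6 groups and Benjamini-Hochberg adjustment over 14835 genes, called under 0.05. CPM are counts scaled to the TMM library size. The fit was also run on simulated counts drawn with the spread it had estimated among libraries, which cannot show the spread between cultures. The alternatives were DESeq2 1.42.0, DESeq2-type size factors (RLE), no filter, only the groups compared, a replicate block, leaving out each library, and response sets of 100 or 500 genes. Same-numbered libraries did not deviate together (correlations of -0.114 to 0.057 over 40 pairs), and the main fit pairs no libraries. With 2 or 3 libraries per group, these correlations cannot show that libraries were unpaired. The genes named were drawn from the 12 largest changes each way with a mean of at least 1 CPM, the 6 smallest p each way, up to 4 per list, 9 chosen genes, the 5 smallest p each way of both difference tests, and 4 genes each way called in opposite directions in the KO line. The members and lists were chosen with earlier results of these data known. Promoters are from RefSeq on GRCm38.p6.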

Additional observations from a re-analysis of the deposited data

Results flagged for a closer look

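The effect of MRTX1719 in wild-type cells differed from its effect in Mtap KO cells, by edgeR's test of the difference itself, at 69 of the 83 genes named. Some of these genes were named for this difference, so the count is a description. Each value below is the log2 fold change in wild-type cells minus that in KO cells.

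Where the estimates had the same sign in both lines, positive differences were H19 4.08, Islr 3.40, Fosb 2.20, Col6a1 1.59, Egr1 1.46, Hspg2 1.38, Col3a1 1.18, H2-K1 0.97, Ier2 0.96, Zc3h6 0.91, H2-Q4 0.87, Pmel 0.82, Gpi1 0.81, B2m 0.79, Bst2 0.75, Col1a2 0.73, H2-D1 0.63, H2-T22 0.52, Rhob 0.51, Bnip3 0.35, Vegfa 0.20, Prmt7 0.17, Srsf1 0.13. Negative differences of that kind were Kif23 -0.10, Hspa8 -0.16, Odc1 -0.17, Iars -0.31, Enoph1 -0.38, Asns -0.41, Spp1 -0.72, Klhl30 -1.45, Hgf -1.54, Il1rl1 -1.75, Serpinb9b -2.60.

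Where the estimates had opposite signs, those higher in wild-type cells were Mdm4 1.19, Ptx3 1.11, Oasl2 1.0, Ifi203 0.87, Irf7 0.86, Txnip 0.80, Tlr3 0.79, Phf20l1 0.62, Ifi204 0.57, Angptl7 0.54, Oas2 0.44, Ifi44 0.44, Mtap 0.43, Cxcl10 0.38, Ccl7 0.34, Wdr77 0.32, Ccl2 0.31, Rigi 0.31, Sms 0.29. Those lower in wild-type cells were Trp53 -0.21, Nusap1 -0.37, Brca1 -0.42, Dnaja1 -0.46, Slc2a1 -0.47, Pcna -0.49, Iqgap3 -0.49, Rrm1 -0.63, E2f2 -0.66, Dnajb1 -0.67, Jmjd6 -0.82, Atf3 -1.10, Cryab -1.17, Pvr -1.30, Sat1 -1.51, Cdkn1a -1.81. An estimate with a sign need not have been called in either line. The cause of these differences was not tested.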

How the results depend on the processing

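Of 1117 genes called with MRTX1719 against DMSO in wild-type cells, the count was 858 with DESeq2, 864 with no filter, 1120 with RLE size factors and 1449 with only the groups compared. Leaving out 1 library gave 433 to 912, lowest without an MRTX1719 library (433 and 510), where fewer libraries remain. The replicate block gave 1010, of which 976 were among the 1117, but the labels show only a shared number. The difference from KO cells was called at 7926 to 8665 genes and 8507 with the replicate block, and that between compounds at 3044 to 4875 genes and 4237 with the block. Of 74 named genes called in wild-type cells, 51 were called in every alternative that gave an adjusted p, and no direction turned. Without DMSO replicate 1, 2 or 3, 10, 13 and 7 of the 74 were no longer called, and without MRTX1719 replicate 1 or 3, 17 and 18. DESeq2 gave no adjusted p for 7 of them. The numbers of list members called higher or lower also moved. With DESeq2, 50 of these numbers stayed within 1.5-fold, 14 were smaller and 2 larger. Without DMSO replicate 2, 40 stayed, 22 were smaller and 4 larger. For class I and heat shock genes, numbers without an MRTX1719 library are not given here. The median of the genes lowered by MRTX1719 in KO cells was -0.071 with 100 and -0.027 with 500 genes per set, and of those lowered by GSK3326595 -0.067 and -0.03. For the raised sets it was 0.019 at both sizes (MRTX1719), and 0.026 and 0.015 (GSK3326595). The cause was not tested. The 2 treated libraries limit the precision, and 15 of the 18 changes of at least 2-fold were at under 1 CPM.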
